A study of Mus musculus with 2 samples.

Results

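The genes described here are the matrix metalloproteinases (Mmp), their tissue inhibitors (Timp), the membrane-anchored disintegrin metalloproteinases (Adam), the secreted relatives with thrombospondin repeats (Adamts) and the Adamts-like proteins (Adamtsl). They were chosen by symbol, as every gene with one of these stems followed by a number and at least 1 probe set annotated to that gene alone. This gave 70 genes, measured by 124 probe sets, of 18193 genes on the array: 18 Mmp, 4 Timp, 28 Adam, 15 Adamts and 5 Adamtsl genes. A further 5 probe sets that carry an Adam symbol and another symbol were left out.

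RNA came from wild-type C57Bl6 mouse embryos at E12.5, when the liver both grows and makes blood. For the first array the RNA came from mesothelial cells, the epithelial sheet on the organ's surface, which FACS had collected after trypsin-EDTA digestion as cells that carry podoplanin (Pdpn). For the second it came from liver cells of the same age and strain, and whether Pdpn+ cells had been taken out of these is not stated. With 1 array per group there was no replicate and no test, so each value describes these 2 arrays alone, and fewer cells of a type cannot be told apart from less RNA per cell.

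Metalloproteinases of these families hold a zinc ion in their active site and cut proteins outside or at the surface of the cell. Matrix metalloproteinases degrade collagens and other matrix proteins, Adam proteinases release the outer parts of membrane proteins such as growth factors and Notch, and Adamts proteinases cut proteoglycans and process procollagens. Timps bind the active site of these enzymes and block it, and Adamtsl proteins resemble the non-catalytic part of Adamts enzymes and have no proteinase domain.

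Values are linear intensities of probe sets, and differences are log2 mesothelial intensity minus log2 liver intensity. Pairs of values give the mesothelial intensity before the liver intensity. A gene is represented by the probe set whose log2 values had the highest mean. It was above the floor where it reached the median intensity of all probe sets on at least 1 array, namely 65.8 for mesothelial and 42.3 for liver cells. A gene above the floor is called mesothelial-enriched or liver-enriched where its intensity was higher there by 2-fold or more. Among 27 controls for bacterial transcripts the brightest read 16.2 and 10.5, and where the lower value of a gene lay within that level the fold is given as a bound. The median difference over all 18193 genes was 0.66, so a typical gene read 1.58-fold higher on the mesothelial array. Intensities of different probe sets are not on a common scale, so genes are compared by their differences, not by their levels.

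Of the 70 genes, 42 passed the floor, with 28 mesothelial-enriched and 6 liver-enriched. The mesothelial-enriched share was 66.7%, against 45.4% of all 12018 genes above the floor, and the liver-enriched share was 14.3% against 3.83%. After each array was centred on its median these members numbered 26 and 6, where the shares over all genes were 23.9% and 9.25%. With no floor, 33 of the 70 differed by 2-fold or more towards mesothelial cells (47.1%, against 36.2% of all genes) and 8 towards liver cells (11.4%, against 4.16%). The median difference over all 70 was 0.85, or 0.18 above that of all genes, and it turned negative, to -0.23, when the arrays were centred on the hybridisation controls. The families thus moved unequally: the medians were 2.84 for Adamts, 2.81 for Timp, 1.66 for Adamtsl, 0.51 for Mmp and 0.20 for Adam genes. Those of Adamts, Timp and Adamtsl genes stayed positive under every scaling between the arrays, while those of Mmp and Adam genes turned negative under some.

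**Figure D1:**
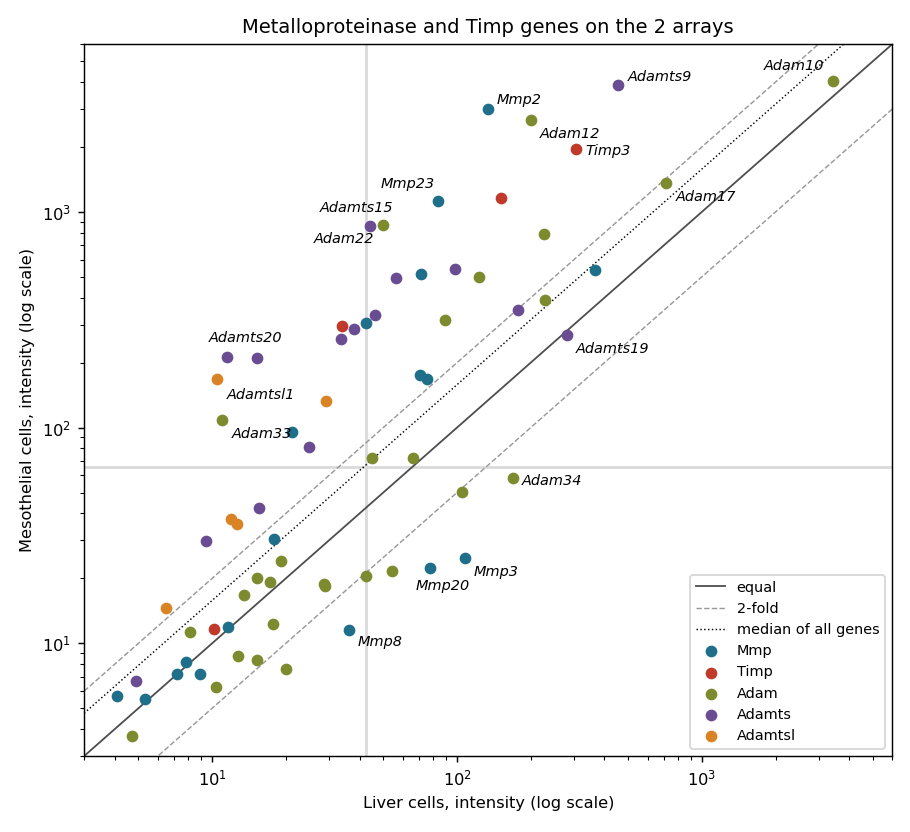
Intensity of each of the 70 genes in liver cells (horizontal) and mesothelial cells (vertical), both on log scales, coloured by family. The solid line marks equal values, the dashed lines 2-fold differences, the dotted line the median difference of all genes (0.66 on the log2 scale) and the grey lines the median intensity of each array; 28 genes above the floor lie beyond the upper dashed line and 6 beyond the lower one.

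Of the 4 inhibitor genes, 3 passed the floor, and all 3 were mesothelial-enriched by similar amounts (against 45.4% of all genes above the floor). The count was also 3 after median centring (against 23.9%). Timp1, a secreted inhibitor that is induced by many cytokines, read 295.5 in mesothelial against 33.9 in liver cells, 8.72-fold higher. Timp2, which inhibits Mmp2 and also takes part in its activation at the cell surface, read 1157.4 against 150.9, 7.67-fold higher. Timp3, which binds to the matrix and also blocks Adam17 and several Adamts enzymes, read 1949.9 against 305.8, 6.38-fold higher. Its 4 probe sets gave differences of 2.20 to 2.87, with an SD of 0.31. Those of the 6 Timp2 probe sets ran from 0.43 to 3.77, the lowest from a probe set at control level on both arrays. Timp4, the family's remaining member, was at control level on both arrays, at 11.6 and 10.2. The differences of Timp1, Timp2 and Timp3 remained at least 2-fold under all 4 scalings between the arrays, the lowest being 1.60 for Timp3.

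Among the matrix metalloproteinases, the gelatinase gene Mmp2, whose product cuts denatured collagens and basement membrane collagen, had the largest difference of all 70 genes. It read 2982.1 against 133.6, 22.3-fold higher in mesothelial cells, and its other probe set read 1056.8 against 49.8, so that the SD between both differences was 0.05. The other gelatinase gene, Mmp9, was under the floor at 30.6 and 17.9, and its probe sets differed in sign, with 0.77 and -0.38. All 4 measured membrane-type genes, whose products are anchored at the cell surface, were mesothelial-enriched (against 45.4% of all genes above the floor). After median centring 2 were (against 23.9%). Mmp16 read 516.9 against 71.2, a 7.26-fold difference. Another Mmp16 probe set above the floor differed by 1.43, and those under the floor by 1.38 and -0.15. Mmp17 read 95.2 against 21.2, a 4.49-fold difference. Mmp14, which activates the Mmp2 proenzyme together with Timp2, read 175.0 against 70.6, a 2.48-fold difference. On the log2 scale that was 1.31, and 0.23 with the arrays centred on the hybridisation controls. A further Mmp14 probe set above the floor read 171.5 against 27.7, a difference of 2.63, and the third, under the floor, differed by 0.06. Mmp24 read 167.5 against 75.1, a 2.23-fold difference that was 0.08 on the log2 scale under the same centring, and its other probe sets, both under the floor, differed by 0.37 and -0.61.

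The remaining matrix metalloproteinase genes were of more mixed behaviour. Mmp23, a short enzyme with no hemopexin domain, read 1125.6 against 83.8, 13.4-fold higher in mesothelial cells, and its other probe set differed by 2.63. Mmp11, which is typical of stroma and is activated inside the cell by furin, read 304.2 against 42.5, 7.16-fold higher from 1 probe set. Mmp19 was the only one of the 10 Mmp genes above the floor without a 2-fold difference, at 535.1 against 364.6. Mmp3, which encodes stromelysin-1, read 24.9 against 107.6 and was 4.32-fold higher in liver cells. Mmp20, the enzyme of tooth enamel formation, read 22.3 against 77.9, 3.49-fold higher in liver cells. Mmp3 and Mmp20 were each read by 1 probe set.

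The genes on each side of that split lay in different places in the genome, a grouping that was made after the values had been seen. In the RefSeq annotation 9 measured Mmp genes form a run on chromosome 9, in the order Mmp13, Mmp12, Mmp1b, Mmp3, Mmp1a, Mmp10, Mmp8, Mmp20 and Mmp7, each within 200 kb of the next. None of the 9 was mesothelial-enriched, and 7 were under the floor, as were 6175 of all 18193 genes. Both that were above it, Mmp3 and Mmp20, were liver-enriched, against 3.83% of all genes above the floor. Mmp1a, Mmp1b, Mmp10, Mmp12 and Mmp13 were at control level on both arrays, with intensities from 4.1 to 8.9, and the matrilysin gene Mmp7 read 11.9 against 11.6. Mmp8, the neutrophil collagenase gene, read 11.5 against 36.2, a liver value higher by at least 2.23-fold, under the floor. Of the 9 Mmp genes elsewhere in the genome, 8 passed the floor and 7 were mesothelial-enriched (against 45.4% of all genes above the floor). After median centring 5 of these remained so (against 23.9%).

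The promoters of the run and of the genes outside it also differ in sequence, and both kinds are shown for comparison. The 150 bases before the transcription start were taken from RefSeq promoters of the GRCm38.p6 build, which held 41 of the 70 genes. The AP-1 motif TGANTCA, the GC box GGGCGG and the TATA box TATAAA were searched on both strands, and matches are in capitals. From the run on chromosome 9, each sequence below carries an AP-1 match followed by a TATA box match.
Mmp3 (chr9:7445672-7445821, strand +): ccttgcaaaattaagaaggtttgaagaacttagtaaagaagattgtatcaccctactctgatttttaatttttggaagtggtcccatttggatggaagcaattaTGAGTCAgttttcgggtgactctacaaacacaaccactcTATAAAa
Mmp10 (chr9:7502192-7502341, strand +): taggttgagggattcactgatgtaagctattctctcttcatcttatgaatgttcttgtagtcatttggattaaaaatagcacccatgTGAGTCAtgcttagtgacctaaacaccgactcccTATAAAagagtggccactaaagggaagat
Mmp13 (chr9:7272364-7272513, strand +): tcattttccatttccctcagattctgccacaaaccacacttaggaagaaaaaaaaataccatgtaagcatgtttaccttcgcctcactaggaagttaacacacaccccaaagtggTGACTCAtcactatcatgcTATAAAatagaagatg
Mmp1a (chr9:7463991-7464140, strand +): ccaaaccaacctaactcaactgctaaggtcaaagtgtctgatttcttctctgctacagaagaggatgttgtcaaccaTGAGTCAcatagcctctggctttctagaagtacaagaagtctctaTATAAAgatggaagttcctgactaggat
From the genes elsewhere, each sequence below carries 1 or more GC box matches, which on the other strand read CCGCCC.
Mmp11 (chr10:75932503-75932652, strand -): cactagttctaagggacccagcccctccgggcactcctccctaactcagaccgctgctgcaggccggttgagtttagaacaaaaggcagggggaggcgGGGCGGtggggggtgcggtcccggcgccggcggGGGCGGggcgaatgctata
Mmp14 (chr14:54431448-54431597, strand +): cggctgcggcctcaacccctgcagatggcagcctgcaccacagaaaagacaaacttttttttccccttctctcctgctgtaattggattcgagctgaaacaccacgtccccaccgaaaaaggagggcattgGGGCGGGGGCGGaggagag
Timp2 (chr11:118355412-118355561, strand -): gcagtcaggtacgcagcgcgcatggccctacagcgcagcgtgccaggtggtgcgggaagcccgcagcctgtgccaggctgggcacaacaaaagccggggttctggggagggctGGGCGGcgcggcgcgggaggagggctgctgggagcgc
Timp3 (chr10:86300262-86300411, strand +): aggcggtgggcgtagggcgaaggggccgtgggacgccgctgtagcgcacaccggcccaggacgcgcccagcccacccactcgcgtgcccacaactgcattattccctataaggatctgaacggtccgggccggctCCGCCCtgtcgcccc
Of 9 genes in the run, 8 had an AP-1 match in at least 1 promoter and 7 a TATA box match, and none had a GC box match. Over all 32851 RefSeq promoters of the same length, 4.2% held the AP-1 motif, 7.6% the TATA box and 28.6% the GC box. In the promoters printed, the AP-1 match began 46 bases before the start in Mmp3, 63 in Mmp10, 35 in Mmp13 and 73 in Mmp1a. Of the 4 Mmp genes outside the run that had a RefSeq promoter, 3 had a GC box match, as did 3 of 4 Timp genes, and none of these 8 had an AP-1 or TATA box match. Mmp8 in the run and Timp4 and Mmp23 outside it had no match to any of these motifs. The GC content had a median of 40.7% in the 11 promoters of the run, 63.3% in the 5 of the other Mmp genes and 54.0% over all promoters. These matches describe letters in a short window, and binding was not measured.

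The Adam genes whose products are proteinases outside the testis were mixed. Of 9, all above the floor, 5 were mesothelial-enriched (55.6%, against 45.4% of all genes) and 1 liver-enriched (11.1%, against 3.83%). Both counts were the same after median centring (against 23.9% and 9.25% of all genes). Adam12, which is known from muscle, bone and other embryonic mesenchyme, read 2662.2 against 200.9, 13.3-fold higher, and its other probe set differed by 2.98. Adam33 read 108.3 against 11.0, 9.85-fold higher, with 1.37 from a probe set under the floor. Its liver value lay just above the brightest control on that array, at 10.5. Adam19, which acts in heart development and releases neuregulin, read 498.5 against 123.3, 4.04-fold higher, and the SD of the difference over its 2 probe sets was 0.05. Adam15 read 315.2 against 89.4, 3.53-fold higher, from a probe set open to cross-hybridisation. The next Adam15 probe set differed by 1.77, and those under the floor by 0.18 and -0.19. Adam9 read 787.9 against 226.2, 3.48-fold higher. The differences of Adam19, Adam15 and Adam9 dropped under 2-fold under another scaling but stayed positive.

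The main sheddases did not share this difference. Adam10, which cuts Notch receptors and cadherins, read 4034.5 against 3416.8, a difference of 0.24. Its 3 other probe sets were all above the floor and read higher in liver cells, with differences of -0.78, -0.99 and -1.86, so the sign for this gene depended on the probe set. Adam17, which releases tumour necrosis factor and ligands of the EGF receptor, read 1359.8 against 716.5, a difference of 0.92, and its other probe sets gave 0.00 and 0.36. Both lay near the median of all genes, at -0.42 and 0.26 relative to it. The sign of Adam10 turned under all 4 other scalings. That of Adam17 turned only with the arrays centred on the hybridisation controls, to -0.15. Adam8, which myeloid cells express, read 72.0 against 66.2. Adam28, an enzyme of lymphocytes and epithelia, read 20.5 against 42.4, 2.07-fold higher in liver cells, from values at the edge of the floor.

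Adam11, Adam22 and Adam23 lack a working active site and serve in adhesion, with ligands of the Lgi family in neurons. Adam22 read 865.5 against 49.8, 17.4-fold higher in mesothelial cells, but its other probe set, under the floor at 20.2 and 35.3, differed by -0.81. Adam23 read 389.5 against 228.6 and Adam11 read 72.3 against 44.8, differences of 0.77 and 0.69 that were close to the median of all genes. Thus of these 3 genes only Adam22 passed the 2-fold threshold, on 1 of its 2 probe sets.

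The 16 Adam genes known mainly from testis and epididymis gave the low end of the family. Of these, 13 were under the floor, with intensities up to 24.1 in mesothelial and 28.8 in liver cells. The 3 above the floor, Adam34, Adam6b and Adam4, were all liver-enriched (against 3.83% of all genes above the floor). With no floor, 4 of the 16 differed by 2-fold or more towards liver cells (25%, against 4.16% of all genes). Adam34 read 58.3 against 169.2, Adam6b 21.6 against 54.2 and Adam4 50.1 against 105.1, each from 1 probe set, and the median over all 16 was -0.58. Adam6b lies within the immunoglobulin heavy chain locus, and its neighbour Adam6a read 6.3 and 10.4, at control level on both arrays. The summed intensity of 6 germ cell markers was 247.1 in mesothelial and 329.0 in liver cells, and 1 of them, Prm1, was above the floor. Adam9 lies at the end of a run on chromosome 8 with Adam18, Adam3, Adam5 and Adam32, none of which was above the floor.

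**Figure D2:**
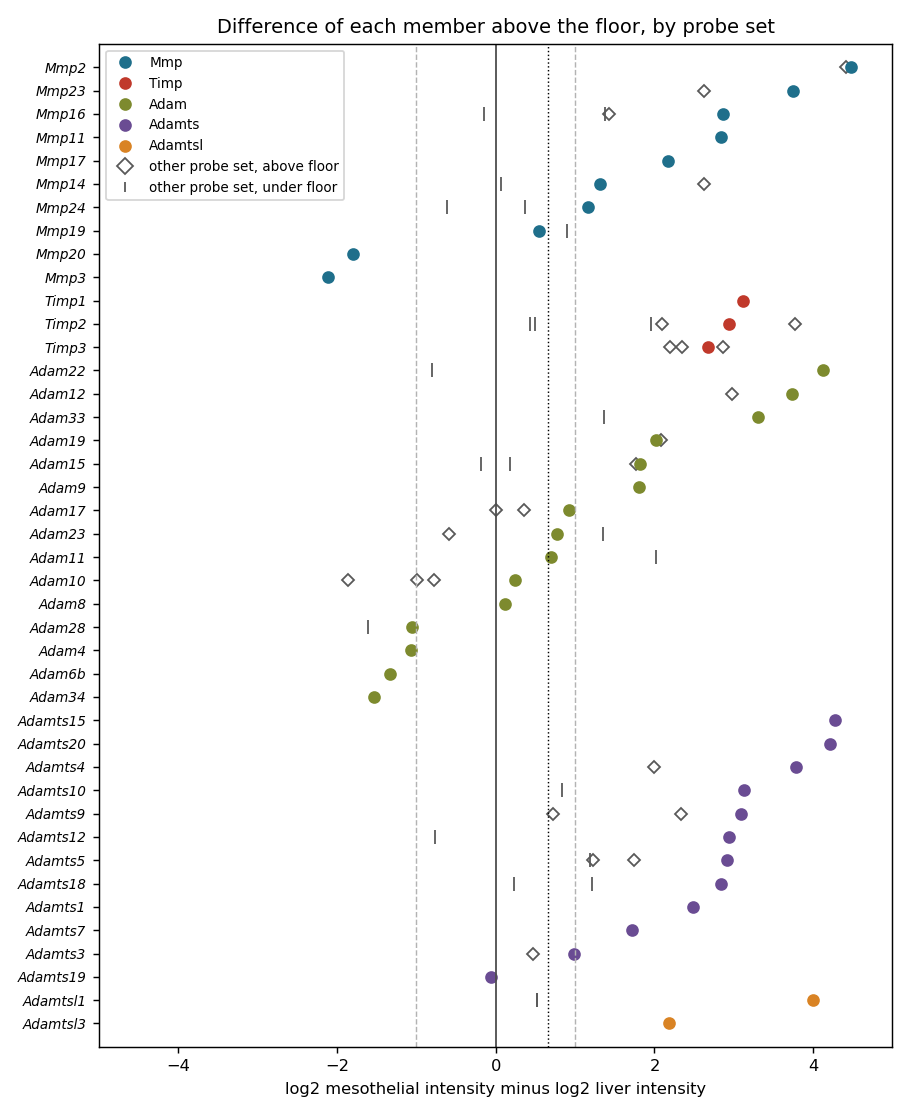
Difference on the log2 scale (horizontal) of each of the 42 genes above the floor, by family. Filled circles are the probe set that represents the gene, diamonds other probe sets above the floor and ticks those under it; dashed lines mark 2-fold differences and the dotted line the median of all genes. The probe sets of Mmp2 and Timp3 lie close together, whereas those of Adam22, Adam10 and Adamts12 spread across 0.

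Of 7 measured Adamts genes whose products cut proteoglycans, 6 passed the floor, and all 6 were mesothelial-enriched (against 45.4% of all genes above the floor). These 6 remained so under every scaling between the arrays. Adamts15 read 857.0 against 44.1, 19.4-fold higher, and Adamts20, known from the migration of melanoblasts, read 213.1 against 11.5, 18.5-fold higher. Each rests on 1 probe set, and the liver value of Adamts20 lay just above the brightest control on that array, at 10.5. The aggrecanase gene Adamts4 read 210.9 against 15.2, 13.9-fold higher, and its other probe set differed by 2.00. Its difference of 3.79 on the log2 scale was replaced by 1.37 under quantile normalization. The representing probe set was chosen again under each scaling. Those of Adamts4, the other at 113.0 against 28.3, had nearly equal mean log2 values. The 1.37 therefore probably belongs to the other probe set and does not measure the scaling alone. Adamts9, which cuts versican, read 3878.7 against 455.8, 8.51-fold higher, while its other probe sets, also above the floor, gave 2.33 and 0.72. Adamts5, another aggrecanase gene, read 287.0 against 38.0, 7.55-fold higher, and its 4 probe sets ran from 1.19 to 2.92. Its neighbour on chromosome 16, Adamts1, which is needed for ovulation, read 545.8 against 98.0, 5.57-fold higher. Adamts8, the neighbour of Adamts15, was at control level on both arrays at 6.7 and 4.9.

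Other Adamts genes followed, with exceptions. Adamts10, which acts on fibrillin microfibrils, read 495.0 against 56.6, 8.75-fold higher, with 0.83 from a probe set under the floor. Adamts12 and Adamts7, a related pair that cut cartilage oligomeric matrix protein, read 258.2 against 33.7 and 81.5 against 24.8, 7.66-fold and 3.29-fold higher. The other Adamts12 probe set, at control level in mesothelial cells, differed by -0.77. Adamts18 read 332.8 against 46.4, 7.17-fold higher, with 1.21 and 0.23 from probe sets under the floor. Adamts3, a procollagen N-proteinase that also takes part in the activation of Vegfc, read 349.4 against 176.8, a difference of 0.98 just short of the threshold. Adamts19 read 267.9 against 280.0 and was the only Adamts gene above the floor without a higher value in mesothelial cells. In all, 10 of 12 Adamts genes above the floor were mesothelial-enriched (83.3%, against 45.4% of all genes above the floor). The count was the same after median centring (against 23.9%). None was liver-enriched, but that share was only 3.83% over all genes. Of the 3 under the floor, Adamts6 and Adamts16 differed by 1.45 and 1.66, at mesothelial intensities of 42.4 and 29.7.

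The Adamtsl genes, whose products bind fibrillin and the matrix around it, were mostly dim. Adamtsl1, known as punctin, read 168.3 in mesothelial cells and was at control level in liver cells at 10.5, at least 16.0-fold higher, but its 2 other probe sets, under the floor, both differed by 0.52. Adamtsl3 read 132.2 against 29.1, 4.54-fold higher. Adamtsl2, Adamtsl4 and Adamtsl5 were under the floor, with differences of 1.66, 1.16 and 1.51, and Adamtsl4 was at control level on both arrays. Thus 2 of the 5 passed the floor, both mesothelial-enriched (against 45.4% of all genes above the floor).

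Probe sets of the same gene gave a measure of the error that does not include variation between embryos, sorts or arrays. Of the 28 mesothelial-enriched genes, 12 had another probe set above the floor, and for 11 of these every such probe set also passed the 2-fold threshold. The exception was Adamts9. A probe set can pass the floor through a high mesothelial value alone, which favours such agreement. Of the probe sets under the floor, which this count leaves out, some passed 2-fold towards mesothelial cells, as for Adam33 and Adamts5. Others did not, as for Mmp14, Adam22, Adamts12 and Adamtsl1. The pooled SD of the differences between probe sets above the floor was 0.77 over 16 of the genes described here and 0.70 over 5323 genes of the array. For 38 of the 70 genes there was 1 probe set and thus no such measure.

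Genes that activate these enzymes, assist them or serve as their substrates were mostly higher in mesothelial cells as well. Of 62 measured, 45 passed the floor, with 34 mesothelial-enriched and 0 liver-enriched (75.6% against 45.4% of all genes). The median over the 62 was 1.31, or 0.65 above that of all genes. After median centring 25 were mesothelial-enriched (55.6% against 23.9%) and 4 liver-enriched (8.89% against 9.25%). Reck, a membrane-anchored inhibitor of several Mmp and Adam enzymes, read 782.8 against 44.3, 17.7-fold higher. Of the proprotein convertase genes, whose products activate Mmp and Adam proenzymes, Pcsk5 was 4.67-fold and Furin 2.83-fold higher, the former with a median of 0.81 over its 5 probe sets. Plat, tissue plasminogen activator, was 7.52-fold higher, whereas the urokinase gene Plau read 7.9 and 12.9, at or near control level. Among 6 proenzyme activation genes above the floor, 5 were mesothelial-enriched (83.3% against 45.4%), and 2 after median centring (33.3% against 23.9%).

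Of the 16 cofactor and inhibitor genes above the floor, 12 were mesothelial-enriched (75%, against 45.4% of all genes). After median centring 9 were mesothelial-enriched (against 23.9%) and 2 liver-enriched (against 9.25%). The receptor gene Lrp1, which clears proteinases and their complexes with inhibitors, was 12.6-fold higher. Rhbdf1, which carries Adam17 to the cell surface, was 11.0-fold higher, while Rhbdf2, its relative, read 68.3 against 56.5. Fbln1, a cofactor of Adamts1, was 10.4-fold higher with a lowest probe set of -0.20. The 2 tetraspanin partners of Adam10 furthest apart were Tspan5, 5.46-fold higher in mesothelial cells, and Tspan33, which read 2087.4 against 3506.9. Tspan33 lay furthest to the liver side in its list.

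Substrates showed the same range. Of 20 above the floor, 15 were mesothelial-enriched (75%, against 45.4% of all genes). After median centring 12 were mesothelial-enriched (against 23.9%) and 2 liver-enriched (against 9.25%). The fibrillar collagen genes led, with Col1a2 at 15.3-fold, Col3a1 at 9.99-fold and Col5a1 at 9.63-fold. Procollagens are the targets of Adamts3 and also of the C-proteinase Bmp1, which was 8.22-fold higher, as was its enhancer Pcolce at 16.8-fold. Over the 3 Bmp1 probe sets the median difference was 1.27. Of 7 astacin and C-proteinase genes 3 passed the floor, and only Bmp1 and Pcolce were mesothelial-enriched (66.7%, against 45.4% of all genes). With no floor the share was 28.6%, against 36.2% of all genes, and the median difference was 0.55, against 0.66. Vegfc, the lymphatic growth factor, was 8.75-fold higher, and its cofactor Ccbe1 7.43-fold, both with wide spread between probe sets, from 0.85 and -0.87 at the lowest. Versican (Vcan) was 6.70-fold higher, but its 8 probe sets reached down to -2.02 with a median of 0.41. Aggrecan (Acan) read 11.7 against 23.3 and neurocan (Ncan) 47.9 against 53.3. The EGF receptor ligand genes Hbegf, Ereg, Tgfa and Btc, which Adam proteinases release, read 69.7 or less on both arrays, and none was at least 2-fold different above the floor. Ereg lay furthest to the liver side of the substrates above the floor, at 26.5 against 50.4.

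**Figure D3:**
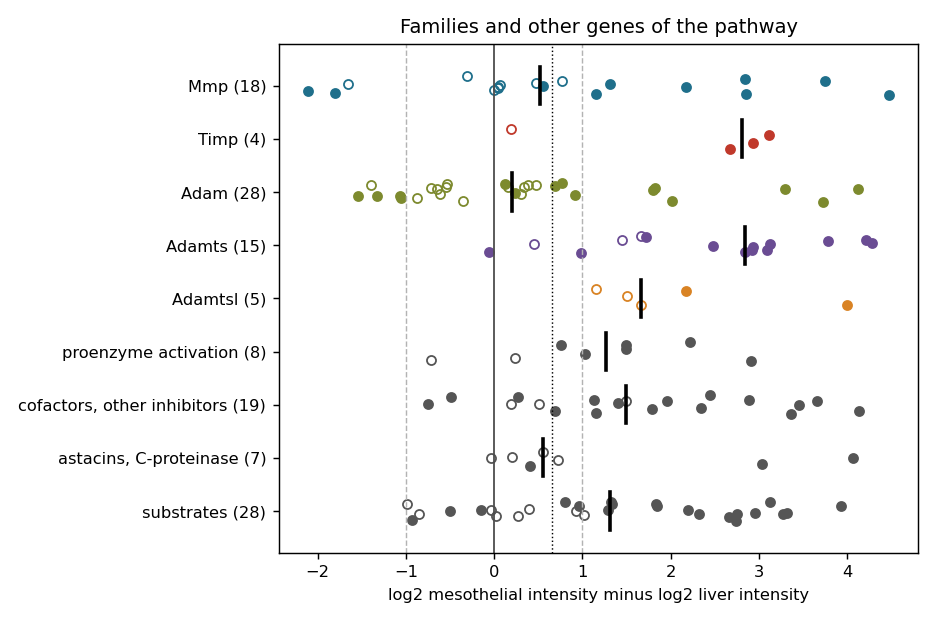
Difference on the log2 scale (horizontal) of every measured gene in the 5 families and in 4 lists of other genes of the pathway, with the number of genes in brackets. Filled points are above the floor and open points under it, black bars are medians, dashed lines mark 2-fold differences and the dotted line the median of all genes; the Adamts and Timp medians, 2.84 and 2.81, lie furthest to the mesothelial side.

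Markers of other cells differed between the arrays too. Over all genes above the floor 45.4% were mesothelial-enriched, or 23.9% after median centring, and 3.83% were liver-enriched, or 9.25% after centring. All 7 mesothelial markers above the floor were mesothelial-enriched, with summed intensities of 26005.6 against 3670.3 over 8 markers, and Msln and Muc16 were at control level in liver cells. Pdpn, the gene of the sort, was 38.8-fold higher, which checks the labels. Markers of stellate cells and submesothelial mesenchyme were mesothelial-enriched for 9 of 10, or 7 after median centring, with sums of 19396.8 against 3360.1. Striated muscle markers were so for 6 of 7 above the floor, or 4 after centring, with sums of 2596.8 against 513.1. The exception, Acta1, was 2.97-fold higher in liver cells. Megakaryocyte markers were mesothelial-enriched for 7 of 7, or 4 after centring, with sums of 27763.9 against 7827.7. Macrophage markers were so for 5 of 8, or 3 after median centring, with sums of 8037.4 against 2833.6. Endothelial markers were so for 3 of 8, or 1 after centring, with sums of 2726.9 against 1413.5. Hepatoblast markers were so for 2 of 6, or 0 after centring, with sums of 67974.6 against 44800.6 and a median of 0.00 relative to all genes. Each sum is weighted towards its brightest probe sets, such as that of Alcam at 13424.5 against 3207.2 among the mesothelial markers. None of these lists had a member at control level in mesothelial cells. The part of these cells in the higher Mmp, Timp, Adam and Adamts values was not tested. On the liver side, neutrophil markers were liver-enriched for 6 of 7 above the floor, with sums of 2931.8 against 6939.6. The exceptions were Mpo, at 2552.1 against 1477.4, and Elane, under the floor at 48.6 against 21.5. Erythroid markers were liver-enriched for 5 of 7, or 6 after centring, with sums of 10155.6 against 28121.9. Their part in the 6 genes higher in liver cells was not tested.

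How many genes passed the threshold varied with the scaling between the arrays, the floor and the threshold. Of the 28 mesothelial-enriched genes, 22 remained so under all 4 scalings tried, and all 28 stayed positive. The 6 that did not were Mmp14, Mmp24, Adam9, Adam15, Adam19 and Adamts7. When the arrays were centred on the hybridisation controls, 22 genes were mesothelial-enriched and 7 liver-enriched, where the shares over all genes above the floor were 14.6% and 17.9%. With the floor raised to the 75th percentile of each array, 14 of 20 genes were mesothelial-enriched (against 42.9% of all genes above that floor) and 0 liver-enriched (against 2.42%). With a 4-fold threshold 23 of 42 were mesothelial-enriched (against 15.9%) and 1 liver-enriched (against 1.07%).

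**Figure D4:**
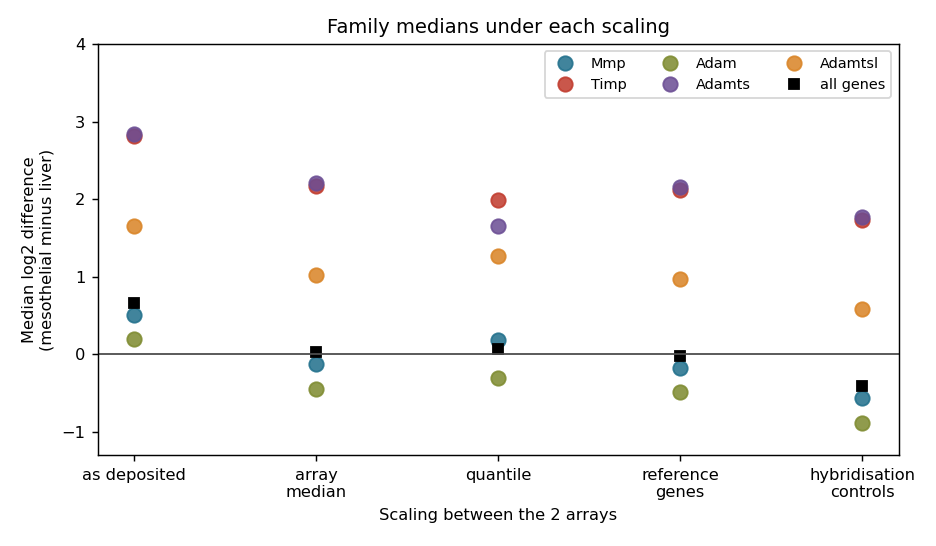
Median difference on the log2 scale (vertical) of each family and of all genes under 5 scalings between the arrays (horizontal). Adamts, Timp and Adamtsl medians stay above 0 in each, from 0.58 upwards, and the Mmp and Adam medians fall to -0.56 and -0.88 with the hybridisation controls.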

How the data were processed

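Affymetrix GeneChip Mouse Genome arrays were used, 1 for mesothelial and 1 for liver cells. The stated age was used, although a description field speaks of far younger embryos. Per the labels' protocols, 20 ng of total RNA was amplified and given a biotin label by NuGEN Ovation systems, which can alter transcript ratios. The deposited values are linear intensities, as their range shows. RMA and Partek stand in the submitters' processing notes without role or order, and any scaling between the arrays is unknown here, so log2 was taken and several scalings were compared. Precision is limited by the number of arrays, 1 per group, so no test was made.

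Symbols came from the platform annotation, for probe sets with 1 symbol only, without 64 control probe sets. All 70 symbols were found in RefSeq for GRCm38.p6. The report gives the floor, the threshold and the rule for bounds. Any member could be named, and in each of 4 lists of other pathway genes up to 4 with the largest difference and the 1 furthest the other way, with some list members added afterwards. Members and lists were chosen with earlier results of these data known.

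Alternatives were a gene's median over probe sets, omission of those ending in _x_at or _s_at, 4 scalings (array median, quantile, reference genes, 18 hybridisation controls), a floor at percentile 75 or none, a threshold of 4-fold, and low values raised to the control level. Counting was tested on simulated data. Python 3.11.15, numpy 2.4.6 and pandas 2.3.3 were used.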

Additional observations from a re-analysis of the deposited data

How the results depend on the processing

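No paired analysis was possible because each group has 1 array, and leaving out an array was not possible for the same reason. With the floor at the 75th percentile, 14 of 20 genes were mesothelial-enriched (against 42.9% of all genes above that floor) and 0 liver-enriched (against 2.42%). With the 4-fold threshold, 23 of 42 genes were mesothelial-enriched (against 15.9% of all genes) and 1 liver-enriched (against 1.07%). At that threshold 21 of 45 other pathway genes were higher in mesothelial cells (against 15.9% of all genes). Centring on the hybridisation controls also gave 21 of 45, at 2-fold (against 14.6% of all genes). That centring moved the median of all genes described to -0.23, of Mmp genes to -0.56, of Timp genes to 1.73, of Adam genes to -0.88, of Adamts genes to 1.77 and of Adamtsl genes to 0.58. Quantile normalization gave medians of 1.99 for Timp and 1.66 for Adamts genes. The median over probe sets gave 1.48 for Adamts genes, with 22 of 34 genes mesothelial-enriched (against 38.4% of all genes). The centring and threshold changes follow from their construction. Under quantile normalization the representing probe set was chosen again, and Adamts4 went from 3.79 to 1.37. It thus crossed from above the Adamts median to below it, which lowers that median. The cause of the remaining changes was not tested. Of 294 values of single genes above the floor under these settings, 211 moved by less than the pooled SD between probe sets of 0.70 and 83 by more. Centring an array shifts every gene alike, by 0.64 for the array median, so each centring put all genes on the same side of that SD. Omitting _x_at and _s_at probe sets or raising low values left nearly all of these values unchanged. The split is therefore no measure of robustness. Of the differences of at least 2-fold, 0 turned sign. Intensities near the bacterial controls, as for 11 of the 70 genes at control level on both arrays, set no measurable difference.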
